A study of Homo sapiens with 3 samples.

Results

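The genes described here encode the human DNA methyltransferases DNMT1, DNMT3A and DNMT3B and their partner UHRF1. The peaks described are those of a ChIP-seq study that share at least 1 bp with 1 of 4 windows on the human build hg19. The windows are chr19:10234000-10316000 for DNMT1, chr2:25445000-25576000 for DNMT3A, chr20:31340000-31408000 for DNMT3B and chr19:4899000-4973000 for UHRF1. They held 7 of the 17127 deposited peaks. All 7 came from the 17089 peaks of wild-type Myc-Idax, and 0 came from the 38 peaks of its DNA-binding mutant.

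Peaks came from stable lines of HEK293T cells, which derive from human embryonic kidney and make the large T antigen of the SV40 virus. One line carried wild-type Myc-Idax, another Myc-IdaxDBM, in which DNA binding is mutated, and the third an empty vector. An anti-c-Myc agarose gel was used for all 3, and each Idax list was called over the empty-vector cells. The promoter that drives Idax, and whether each line is 1 clone, are not given in the sources used here. Myc, the tag, is a stretch of the c-MYC protein, which human cells also make themselves, with or without the vector. Each condition had 2 replicates by the series' design, but 1 list per Idax construct was analysed, so no value below has a replicate error and no difference was tested. Read depth is unknown.

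DNA methylation in mammals is placed on the cytosine of CpG. DNMT3A and DNMT3B methylate unmethylated DNA. DNMT1 copies the mark onto the new strand after replication, and UHRF1 binds the half-methylated CpG and brings DNMT1 to it. Idax, also called CXXC4, binds DNA through a CXXC zinc finger that prefers unmethylated CpG, the usual state of CpG-rich promoters. DNMT1 carries a CXXC zinc finger of its own. The comparison asks whether Idax was detected at the genes of the methylation enzymes and whether its DNA-binding mutant was.

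Because the CXXC finger binds CpG, the sequence in front of 1 annotated start of each gene is shown, with every CG in capitals. These are the 250 bases before the most upstream start that RefSeq's promoter table gives for the gene. Their coordinates are of another build than the peaks and must not be set against the hg19 positions.

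DNMT1, GRCh38.p14, chr19:10194954-10195203, reverse strand: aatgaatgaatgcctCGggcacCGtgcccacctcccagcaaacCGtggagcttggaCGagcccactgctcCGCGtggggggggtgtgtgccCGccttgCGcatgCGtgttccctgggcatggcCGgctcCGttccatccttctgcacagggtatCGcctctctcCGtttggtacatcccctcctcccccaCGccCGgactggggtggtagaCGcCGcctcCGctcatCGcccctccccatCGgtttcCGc
UHRF1, GRCh38.p14, chr19:4909251-4909500, forward strand: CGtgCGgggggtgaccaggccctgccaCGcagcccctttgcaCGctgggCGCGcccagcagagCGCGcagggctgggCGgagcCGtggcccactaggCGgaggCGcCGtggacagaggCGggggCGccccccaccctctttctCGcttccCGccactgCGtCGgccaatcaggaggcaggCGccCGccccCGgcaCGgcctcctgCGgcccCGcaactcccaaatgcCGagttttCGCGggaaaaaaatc
DNMT3A, GRCh38.p14, chr2:25342591-25342840, reverse strand: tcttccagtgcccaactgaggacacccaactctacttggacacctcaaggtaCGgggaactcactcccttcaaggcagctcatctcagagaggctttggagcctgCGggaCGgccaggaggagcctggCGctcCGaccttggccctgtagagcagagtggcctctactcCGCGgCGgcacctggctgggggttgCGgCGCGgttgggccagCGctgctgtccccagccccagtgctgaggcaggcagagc
DNMT3B, GRCh38.p14, chr20:32779602-32779851, forward strand: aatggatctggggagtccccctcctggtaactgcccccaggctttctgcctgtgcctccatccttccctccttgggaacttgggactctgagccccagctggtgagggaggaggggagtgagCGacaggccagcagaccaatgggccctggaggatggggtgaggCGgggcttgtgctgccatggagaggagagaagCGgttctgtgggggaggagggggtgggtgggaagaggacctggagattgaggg

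UHRF1 had 28 CG in these bases and DNMT1 had 21. DNMT3A had 12 and DNMT3B had 3. CG reads the same on both strands, and 93.6% of genes in the table hold at least 1 in the 250 bases before the start. With the 50 bases after the start included, UHRF1 had 36 CG in 300 bases, more than 87.6% of the 27305 genes in the table, and DNMT1 had 30, more than 78.0%. DNMT3A had 18, more than 55.7%, and DNMT3B had 3, more than 18.96%. The median over all genes was 13 and the quartiles were 3 and 28.

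Other starts of the same genes differed. DNMT3A had 6 entries with 18 to 46 CG in 300 bases, and UHRF1 had 3 entries with 36 to 46. The only DNMT3B entry and all 3 UHRF1 entries lie inside the gene as RefSeq annotates it and not at its outermost start, so the sequences printed for DNMT3B and UHRF1 are those of internal starts. Those printed for DNMT1 and DNMT3A are at the outermost start. Of 33 genes listed for DNA methylation and its readers, erasers and CXXC proteins, 30 had an entry, with a median of 26.5 CG (range 3 to 50), and 25 of them were above the median of all genes.

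**Figure D1:**
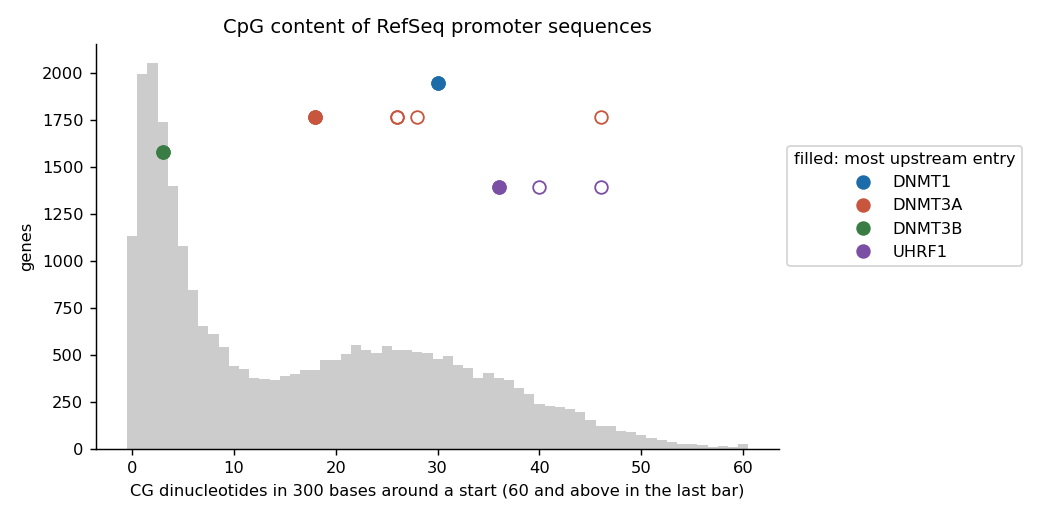
Number of CG dinucleotides in 300 bases around a start (x axis) for the 27305 genes with a RefSeq promoter sequence (grey bars, y axis: genes), with the entries of the 4 genes as circles at arbitrary heights. Filled circles are the most upstream entries, at 30 (DNMT1), 18 (DNMT3A), 3 (DNMT3B) and 36 (UHRF1). Entries of DNMT3A with equal counts lie on top of each other.

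Each of the 4 windows held a wild-type peak on the side where its gene starts. DNMT1 and DNMT3A are read from the reverse strand and DNMT3B and UHRF1 from the forward strand, so the start side is the upper end of the first pair of windows and the lower end of the other pair. The peak nearest to that edge began 9.72 to 10.2 kb inside it in every window, and its centre lay 10.2 to 10.7 kb inside. The windows were drawn around the genes, and hg19 gene coordinates were not used, so these are distances from a window edge and not from a start. The scores of these 4 peaks differed widely, from 110.07 at DNMT3A to 669.5 at DNMT1, a ratio of 6.08. The score is the authors' deposited value for each peak, and it is used here only within the wild-type list. Its scale is not given, so a ratio of scores cannot be read as a ratio of binding or enrichment. Strong and weak refer to this score alone.

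A window with a peak was the more common case on chromosome 19 and the less common one on chromosomes 2 and 20. Of 717 tiles of the DNMT1 window's length laid over chromosome 19, 63.9% held 1 or more wild-type peaks, and of 794 tiles of the UHRF1 window's length, 60.7% did. The share was 35.5% of 1853 tiles for DNMT3A on chromosome 2 and 30.6% of 922 tiles for DNMT3B on chromosome 20. The other windows held 2 peaks each, and 2 or more peaks were found in 14.7% of the tiles for DNMT3A, 12.1% of those for DNMT3B and 40.6% of those for UHRF1. The 2 windows on chromosome 19 were thus near the background of that chromosome. The tiles are not matched for genes, and gene-poor stretches count among them. The counts of 2 also depend on the window ends and on how peaks were split. Narrowed by 10 kb on each side, the DNMT3B and UHRF1 windows held 1 peak each. The 2 DNMT3A peaks were 1215 bp apart.

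**Figure D2:**
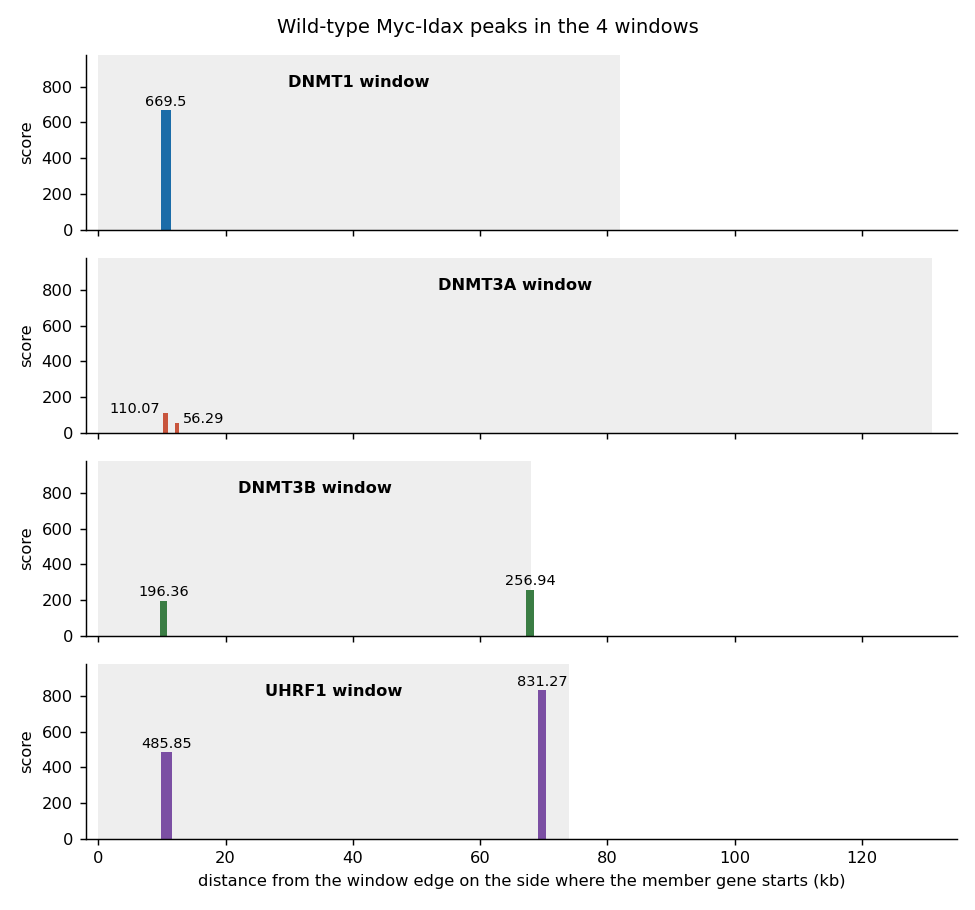
Wild-type peaks in each window (grey), drawn to scale from the edge on the side where the gene starts (x axis, kb) with the authors' score as the height (y axis). Every window has a peak centred 10.2 to 10.7 kb from that edge, and the DNMT3B and UHRF1 windows have a further peak at the opposite end. The windows were drawn around the genes, so these distances depend on the window edges and are not distances from a start.

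DNMT1, the maintenance enzyme, had a single wild-type peak, at chr19:10304541-10306178. It was 1638 bp wide, scored 669.5 and ranked 1470 of 17089 in the list. On chromosome 19 it ranked 98 of 1259 peaks. It was also strong for its width: 85.6% of the 2244 peaks within 10% of its width scored lower, and their median score was 396. The list as a whole had a median score of 223 and a median width of 1116 bp.

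The rest of the DNMT1 window was empty. The peak-free stretch before the peak ran from 10231001 to 10304540, or 73.5 kb, of which 70.5 kb lay in the window and made up 86.0% of it. Of the 1258 stretches between neighbouring peaks of chromosome 19, 87.2% were shorter, and their median was 19.9 kb. The ranked stretch was chosen for filling most of the window, which favours long ones. The next peaks outside the window were 2999 bp below it, towards EIF3G, with a score of 130.65, and 24.5 kb above it, towards S1PR2, with a score of 262.85. The 500 kb on each side held 41 further wild-type peaks with scores from 55.6 to 858 and a median of 181. The DNMT1 peak stood alone within its window only, and the window widened by 10 kb on each side held 2 peaks. Its neighbourhood was densely occupied, with 41 peaks per Mb in these flanks against 21.4 per Mb over chromosome 19.

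UHRF1, the reader that brings DNMT1 to newly copied DNA, had 2 wild-type peaks in its window. The start-side peak at chr19:4908930-4910535 was 1606 bp wide, scored 485.85 and ranked 3102 in the list and 216 of 1259 on the chromosome. Among 2331 peaks of like width, 66.2% scored lower. In width it was close to the DNMT1 peak, and its score was lower. Whether scores of 485.85 and 669.5 differ by more than replicate spread could not be tested.

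The other UHRF1-window peak, at chr19:4968067-4969424, was the strongest of the 7. It scored 831.27 over 1358 bp and ranked 793 in the list and 54 on the chromosome, and 95.9% of 2856 peaks of like width scored lower. Its score was 1.71 times that of the start-side peak. It lay at 94.2% of the window's length, on the side of KDM4B, the next protein-coding gene in RefSeq's order, which encodes a histone demethylase and is read in the same direction. KDM4B had 43 CG in its 300-base promoter sequence, more than 95.1% of genes. The peak was not assigned to either gene, because no hg19 annotation was used. Between the 2 peaks lay 57.5 kb without a peak, longer than 82.0% of the stretches on chromosome 19. It was ranked because it fills most of the window, so a high rank is favoured by the choice. In RefSeq's annotation ARRDC5 overlaps UHRF1, and the start-side peak was not assigned to UHRF1 alone.

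DNMT3B, which encodes a de novo enzyme, had a start-side peak of middling strength. It lay at chr20:31349718-31350762, was 1045 bp wide and scored 196.36. That is the median score of the 435 wild-type peaks on chromosome 20, and 45.2% of the whole list scored lower. Among 3016 peaks of like width the median was 209, and 45.9% scored lower. The sequence printed for DNMT3B belongs to an internal start and was not placed relative to this peak.

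The second peak of the DNMT3B window, at chr20:31407255-31408434, ran across the window's far edge, with 746 of its 1180 bp inside and 434 bp outside. It scored 256.94, 1.31 times the start-side peak, and ranked 7593 in the list. The side where it lay is that of MAPRE1, the next protein-coding gene, which encodes a microtubule end-binding protein and is read in the same direction. MAPRE1 had 42 CG in its 300-base promoter sequence, more than 94.3% of genes, at a start that is not its outermost. As at UHRF1, the peak was not assigned to a gene. The 56.5 kb between the 2 peaks were peak-free. In length this was close to the median stretch of chromosome 20 (55.9 kb), and 50.7% of its stretches were shorter. It too was ranked for filling most of the window, which favours long stretches. Flanks of 500 kb on each side held 6 wild-type peaks, whose scores ran from 51.6 to 548 with a median of 92.8.

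DNMT3A, the other de novo enzyme, had the 2 weakest and narrowest peaks of the set, and they lay side by side. The start-side peak at chr2:25565085-25565787 was 703 bp wide and scored 110.07, and the inner peak at chr2:25563261-25563869 was 609 bp wide and scored 56.29. In the whole list 25.3% and 4.14% of peaks scored lower, and the lowest score of the list was 50.01. Against peaks of like width the start-side peak was above the median (70.2% of 2238 scored lower, median 84.8), and the inner peak was below it (21.4% of 1431 scored lower, median 67.2). The pair was separated by 1215 bp and spanned 2527 bp from end to end, all of it on the side where the gene starts.

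The remainder of the DNMT3A window held no wild-type peak. The stretch from 25266335 to 25563260 was peak-free over 297 kb, of which 118 kb lay in the window and made up 90.3% of it. On chromosome 2, 83.6% of 1087 stretches were shorter, with a median of 85.1 kb. Here too the ranked stretch was chosen for filling most of the window, which favours long ones. The 3 innermost starts that the RefSeq table gives for DNMT3A have 18 to 28 CG in 300 bases, but their hg19 positions were not used here. The 7 wild-type peaks within 500 kb of the window had a median score of 125. The strongest of them, 442.4, was the nearest on the lower side, 179 kb away. On the upper side, where the gene starts, the nearest was 8.776 kb from the window and scored 122.89, above both DNMT3A peaks. Widened by 10 kb on each side, the DNMT3A window held 3 peaks.

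**Figure D3:**
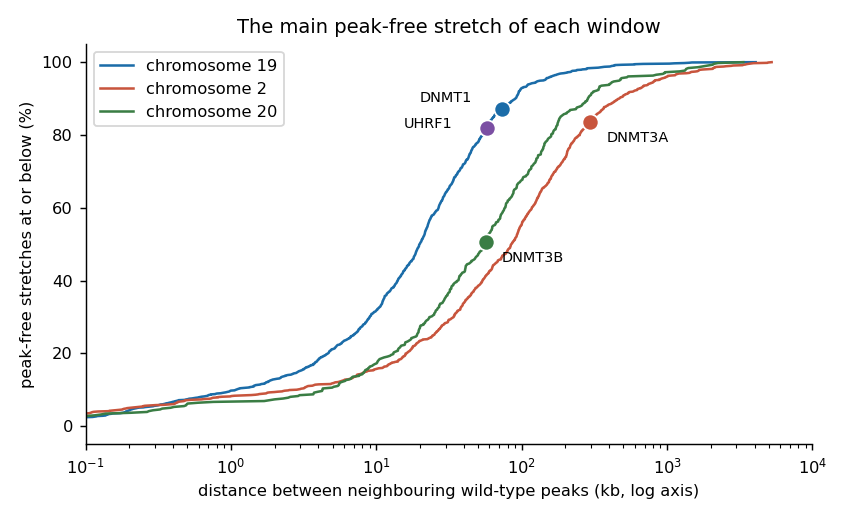
Share of peak-free stretches (y axis) up to a given length (x axis, kb, log axis; lengths under 0.1 kb are not drawn) between neighbouring wild-type peaks of chromosomes 2, 19 and 20, with the main stretch of each window as a circle. The stretches of DNMT1 (73.5 kb), UHRF1 (57.5 kb) and DNMT3A (297 kb) lie above 80% of their curves, and that of DNMT3B (56.5 kb) lies near the middle. Each circle is the stretch that fills most of its window, a choice that favours long stretches.

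Ordered by score, the peaks ran from the far peak of the UHRF1 window through the DNMT1 peak to the UHRF1 start-side peak. After these came the far and the start-side peak of the DNMT3B window, then the start-side and the inner peak of DNMT3A. Their median score was 257 and their median width 1180 bp. Of the 7, 4 scored above the list median of 223, and 3 scored above its upper quartile of 408. The 4 include the far peaks of the UHRF1 and DNMT3B windows (831.27 and 256.94), which were not assigned to a gene. The 3 under the list median were the start-side peak of DNMT3B and both DNMT3A peaks. The place of the set against the list therefore depends on the unassigned far peaks. A score of 100 or more was reached by 6 of the 7 and by 77.9% of the list, and a score of 200 or more by 4 of the 7 and by 54.1% of the list, so the set was near the list in both. Against peaks of like width, 5 of 7 scored above most, the far peak of the DNMT3B window only just (50.8% scored lower). The same share was not counted over the whole list, so no excess can be read from it. With 1 list, no neighbours in this order could be tested against each other. The scores of the 4 start-side peaks fell in the order DNMT1, UHRF1, DNMT3B, DNMT3A, and the CG counts of the most upstream RefSeq entries in the order UHRF1, DNMT1, DNMT3A, DNMT3B. With 4 genes there are too few points for a correlation, and the DNMT3B and UHRF1 entries are not at the outermost start of their genes.

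**Figure D4:**
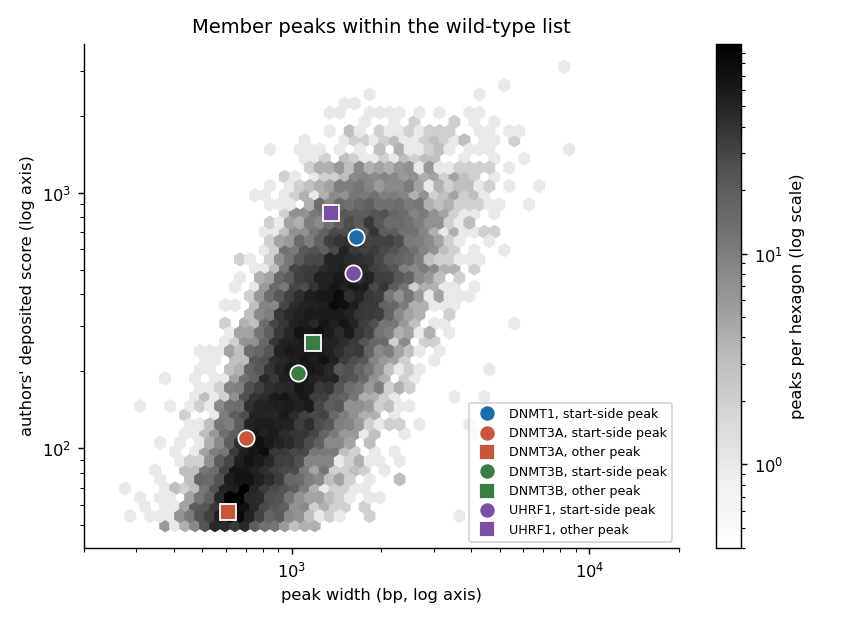
Score (y axis, log) against width (x axis, bp, log) of all 17089 wild-type peaks, as hexagons shaded by the number of peaks, with the peaks of the 4 windows as coloured symbols. Circles are the peaks nearest to the start-side edge and squares the other peaks. DNMT3A lies at the low, narrow end and DNMT1 and both UHRF1-window peaks lie above the list's upper quartile of 408.

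Peaks covered 4.01% of the UHRF1 window and 2.00% of the DNMT1 window, against 2.40% of chromosome 19. They covered 2.63% of the DNMT3B window against 0.759% of chromosome 20, and 1.00% of the DNMT3A window against 0.557% of chromosome 2. The share was 1.59% for DNMT3B when its window was narrowed by 10 kb on each side, and 0.537% for DNMT3A with peaks of score 100 or more. The share of chromosome 2 at that score was not computed, so 0.537% cannot be set against its 0.557%, which counts all peaks. In peaks per Mb, the DNMT1 window had 12.2 and the UHRF1 window 27.0, on a chromosome with 21.4. The DNMT3B window had 29.4 against 6.94 over chromosome 20, and the DNMT3A window 15.3 against 4.48 over chromosome 2. A window holding 1 or 2 peaks gives a coarse density, and the second peaks of the UHRF1 and DNMT3B windows were not assigned to a gene.

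**Figure D5:**
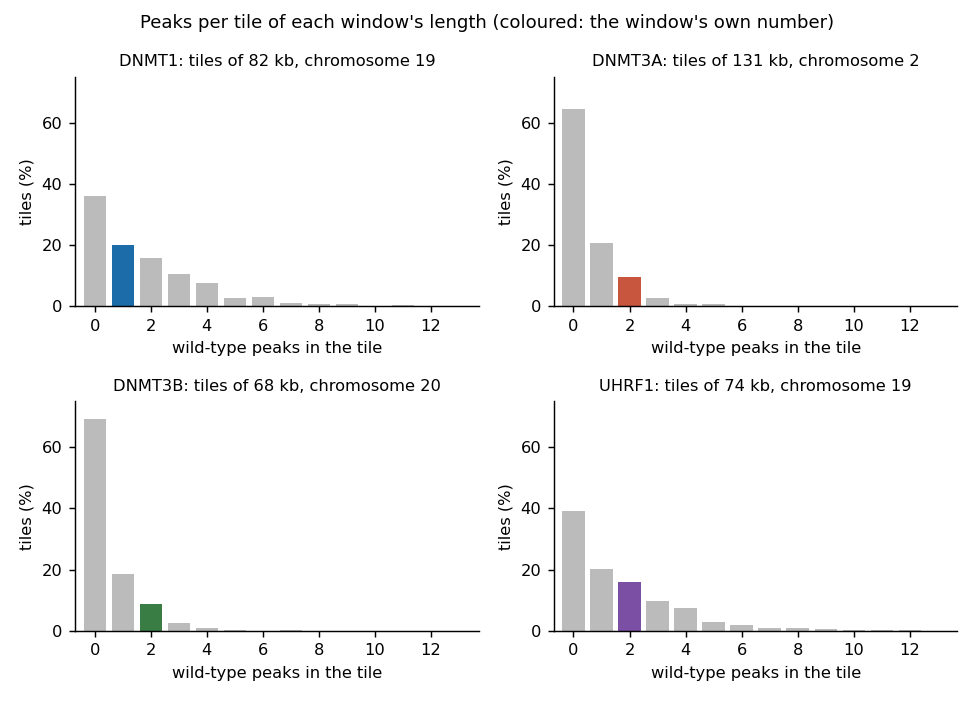
Share of tiles (y axis, %) by the number of wild-type peaks in a tile (x axis), for tiles of each window's length on its own chromosome. The coloured bar is the number found in the window itself, 1 for DNMT1 and 2 for the others.

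The DNA-binding mutant had 0 peaks in the 4 windows, and 0 of the 7 wild-type peaks were overlapped by a mutant peak. Over the whole wild-type list, 0.0585% of peaks were, so the members do not stand apart in this. Chromosomes 19 and 20 had no mutant peak at all. Chromosome 2 had 1, which lay 66.3 Mb from the DNMT3A window, so that 0.054% of its 1853 tiles held a mutant peak. The mutant list held 38 peaks in all with scores from 50.43 to 94.45, which were not compared with those of the wild-type list. Amounts of the 2 proteins and the depth of the libraries were not measured in these lists, so mutant binding below the calling threshold cannot be told apart from none.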

How the data were processed

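Members and gene lists were chosen with earlier results of these data known. The 2 peak lists (wild-type Idax and its DNA-binding mutant, each over empty vector) were analysed. Build hg19, MACS 1.4.1 and Bowtie 0.12.7 are listed in the submitters' processing notes, and the sources used here do not give the way in which replicates were joined. Each list had 5 columns without a header, and the last is the authors' deposited score, whose scale is not given. Starts were converted to 1-based. Peaks sharing 1 bp with a window were counted, and every one was named. Ranks, widths and scores were set against the whole wild-type list, peaks within 10% of the same width, and tiles of the window's length between the outermost wild-type peaks of the chromosome. CG was counted in RefSeq promoter sequences (GRCh38.p14), the most upstream entry per gene. Gene order and strand came from RefSeq, also GRCh38.p14, and no coordinate was moved between builds. Counting was tested on simulated lists. Alternatives covered the score, overlap, merging, window ends, ranks, tiles and promoter length. The third line's reads were not analysed here. The software was matplotlib 3.10.9, SciPy 1.17.1, pandas 2.3.3 and numpy 2.4.6 under Python 3.11.15.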

Additional observations from a re-analysis of the deposited data

How the results depend on the processing

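No paired analysis was possible because each construct had 1 list without replicate numbers, and no replicate could be left out. Of 40 alternatives, 19 kept the value within 1.5 times a count or within the 95% binomial interval of a share, and 21 moved it. The interval treats single bases, peaks, tiles or genes as independent and measures no replicate spread. Some alternatives, such as rank by width, are also another quantity. The 19 and 21 are therefore no measure of robustness. At a score of 200 or more, 4 wild-type peaks were left, none of them at DNMT3A. A score of 100 or more left 6. Windows narrowed by 10 kb on each side held 5, without the far peaks of the UHRF1 and DNMT3B windows. Windows widened by 10 kb held 10. The mutant count was 0 under each alternative run for it. The narrowed windows were covered to 2.35% (DNMT1), 1.18% (DNMT3A), 1.59% (DNMT3B) and 2.84% (UHRF1), and peaks of score 100 or more covered 0.537% of the DNMT3A window. The strongest peak of a window lay, by width, in the top 18.9% (DNMT1), 86.3% (DNMT3A), 45.3% (DNMT3B) and 33.4% (UHRF1) of the list, and by score on its chromosome in the top 7.78%, 76.7%, 38.2% and 4.29%, against 8.61%, 74.7%, 44.4% and 4.64% by score in the list. Tiles of all chromosomes held a peak in 28.3% (DNMT1 length), 25.01% (DNMT3B) and 26.5% (UHRF1). With 250 bases, 70.4% (DNMT1), 51.9% (DNMT3A), 23.6% (DNMT3B) and 84.6% (UHRF1) of genes had fewer CG. Depth is unknown, so the share of weak sites missed was not tested.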
